A study of Mus musculus with 27 samples.

Results

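Zic1, Zic2, Zic4 and Zic5 were followed through the mouse pluripotent states of this study. They were taken by gene symbol, and all 4 were found among the 23608 entries of the bulk RNA table, while the single-cell tables held Zic2 and Zic5. The bulk RNA was measured in 19 libraries, whose genotype the labels give as wild type. The naive state was given by mESCs (mouse embryonic stem cells kept in 2i and LIF, 2 libraries) and the primed state by EpiSCs (epiblast stem cells, 2 libraries). By the paper's methods the EpiSC medium held serum replacement, Activin A, bFgf2 and the tankyrase inhibitor XAV939. EpiLCs were epiblast-like cells induced from mESCs (2 libraries), and Epiblastoids were the 3D counterpart of EpiLCs at days 2, 3 and 4 (1 library each). The paper describes the cells of day 4 as irregular colonies that had lost their polarity. Formative pluripotent stem cells (fPSCs) were stabilised from Epiblastoids, likewise with Activin A, bFgf2 and XAV939. They were given by passage 1 (P1, 1 library) and by 7 libraries of P10 to P30, namely P10, P20 and P30 (the first set) and a later set of 4 libraries, which are named by parent mESC line as BVSC P14, ROSAmTmG P12, 46C P24 and CMT P11. The first set also came from the CMT line, and CMT P11 had been frozen. Of the other parent lines, 46C carried a Sox1-GFP reporter, BVSC a Blimp1 and Stella reporter and ROSAmTmG a fluorescent transgene. E5.5 and E6.5 fPSCs (1 library each, P10) were derived from epiblasts instead of mESCs. fPSCs at P10 were also profiled for H3K4me3, H3K27me3 and DNA methylation, with 1 file each, and the single-cell tables held 182 columns of fPSCs from 4 clones, fewer than the cells the study describes. Beyond passage and line, nothing in the labels says which libraries were separate cultures, so the p-values measure the spread between these libraries, which may be technical. The tests took the 7 fPSC libraries as replicates of 1 group. Their spread also holds differences of passage, parent line and set, and the first set and CMT P11 share a line.

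The Zic genes encode transcription factors whose C2H2 zinc fingers resemble those of the Gli factors of hedgehog signalling. These 4 genes lie as head-to-head pairs, and their best known roles are in the neural plate, the neural crest and the midline of the brain. Zic2 is also known to bind enhancers in pluripotent cells, and its loss causes holoprosencephaly. On the NCBIM37 (mm9) annotation Zic5 was at chr14:122856017-122864899 on the minus strand and Zic2 at chr14:122874604-122879074 on the plus strand, with 9705 bp between their start sites. Zic1 was at chr9:91252896-91260648 on the minus strand and Zic4 at chr9:91257251-91284186 on the plus strand. The annotated bodies of Zic1 and Zic4 overlapped by 3398 bp, so reads there could not be told apart without strand.

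The promoter sequences are shown because DNA methylation, measured below, falls on CG pairs. They are the RefSeq promoters on GRCm38.p6, from 250 bases before to 50 bases after the start, read along the gene, with each CG in capitals. Zic1 at chr9:91365719-91366018 (minus strand), Zic4 at chr9:91368722-91369021 (plus strand) and Zic5 at chr14:122465609-122465908 (minus strand) had an entry, and Zic2 is named only.
Zic1: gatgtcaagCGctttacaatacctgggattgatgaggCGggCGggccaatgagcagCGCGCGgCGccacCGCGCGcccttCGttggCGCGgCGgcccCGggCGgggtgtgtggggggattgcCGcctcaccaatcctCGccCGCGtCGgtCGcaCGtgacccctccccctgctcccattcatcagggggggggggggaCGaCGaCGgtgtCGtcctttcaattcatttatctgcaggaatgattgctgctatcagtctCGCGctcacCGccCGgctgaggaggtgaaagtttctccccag
Zic4: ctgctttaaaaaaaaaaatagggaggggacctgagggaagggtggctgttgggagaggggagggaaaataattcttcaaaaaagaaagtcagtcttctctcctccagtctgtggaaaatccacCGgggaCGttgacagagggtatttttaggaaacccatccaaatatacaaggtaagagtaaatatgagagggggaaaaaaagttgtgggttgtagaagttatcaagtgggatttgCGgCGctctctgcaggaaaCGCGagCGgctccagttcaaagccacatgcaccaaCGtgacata
Zic5: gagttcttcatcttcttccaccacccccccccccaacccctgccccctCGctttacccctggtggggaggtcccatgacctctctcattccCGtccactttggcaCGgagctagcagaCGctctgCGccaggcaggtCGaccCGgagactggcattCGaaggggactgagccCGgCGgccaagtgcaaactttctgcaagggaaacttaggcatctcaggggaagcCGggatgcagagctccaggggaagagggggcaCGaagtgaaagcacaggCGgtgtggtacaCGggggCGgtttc

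The Zic1 promoter held 31 CG pairs, more than 89.4% of the 32851 RefSeq promoters, whose median was 7. The Zic5 promoter held 15, more than 65.4% of promoters, and the Zic4 promoter 8, more than 51.4%. The CCAAT box, searched on both strands, was found 2 times in the Zic1 promoter and in neither of the other pair, against 37.4% of all promoters with at least 1 match. No match to TATAAA was found in any of the 3, against 13.6% of all promoters. Each sequence matched NCBIM37 at a single place. The matched start lay 42 bp from the annotated gene start for Zic1 and 19 bp for Zic5, but 6559 bp downstream of it for Zic4, whose 8 coding transcripts start up to 19997 bp apart.

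Zic2 and Zic5 were transcribed in every library, and Zic1 and Zic4 in none at an appreciable level. Zic2 was lowest in mESCs, at 13.7 and 5.40 FPKM (fragments scaled to transcript length and library size, the unit the authors deposited). It was at 68.7 and 64.2 FPKM in EpiLCs and at 40.4 and 33.7 in EpiSCs. In the 7 fPSC libraries Zic2 ran from 71.1 to 104.0 FPKM with a median of 85.6. The lowest of them was only a little above the higher EpiLC library, and the difference from EpiLCs was not called (below). How many of all genes separate fPSCs from the other groups in this way was not counted. By group means Zic2 was thus highest in fPSCs (85.1 ± 12.4 FPKM, SD, n = 7), followed by EpiLCs (66.4 ± 3.13, n = 2), EpiSCs (37.0 ± 4.75, n = 2) and mESCs (9.53 ± 5.84, n = 2). Among the entries of the bulk table Zic2 stood above 97.0% in fPSCs and above 76.0% in mESCs.

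Zic5 followed a similar course at a lower level. Its mESC libraries were at 2.69 and 1.74 FPKM, its EpiLC libraries at 34.3 and 24.8, and its EpiSC libraries at 12.4 and 9.97. In fPSCs Zic5 ran from 17.6 to 28.4 FPKM with a median of 24.6, above both EpiSC libraries and across the lower of the EpiLC pair. The order of means therefore differed from that of Zic2, with EpiLCs first (29.6 ± 6.75 FPKM, n = 2), then fPSCs (24.3 ± 3.85, n = 7), EpiSCs (11.2 ± 1.74, n = 2) and mESCs (2.21 ± 0.67, n = 2).

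**Figure D1:**
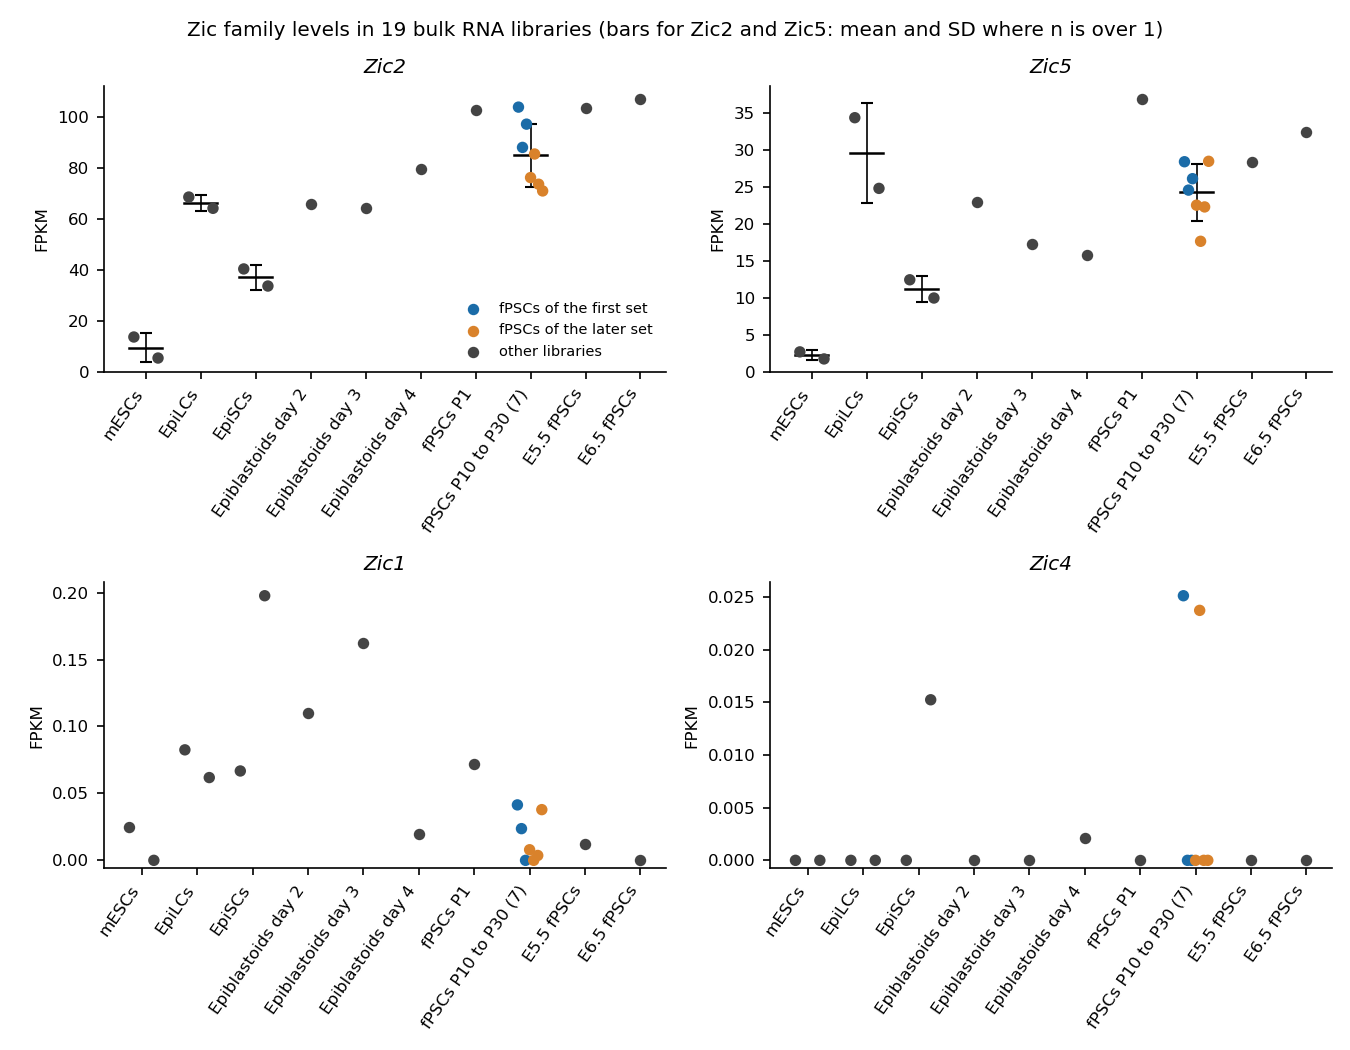
FPKM of the 4 members in each of the 19 bulk libraries, by group; points are libraries (blue, first set of fPSCs; orange, later set), horizontal bars are means and vertical bars SDs for Zic2 and Zic5 in groups of more than 1 library. The 7 fPSC libraries sit between 71.1 and 104.0 FPKM for Zic2 and between 17.6 and 28.4 FPKM for Zic5, while Zic1 and Zic4 stay below 0.2 FPKM in all 19.

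The move out of the naive state was tested with limma on log2(FPKM + 1) over 12513 genes, with the 6 libraries of the other states and the 7 of fPSCs fitted together. A call needed a change of 1.5-fold or more together with an adjusted p (Benjamini-Hochberg) below 0.05. Zic2 rose from mESCs to EpiLCs by 2.80 ± 0.31 (log2 fold change ± SE, adjusted p = 2.06e-05) and Zic5 by 3.25 ± 0.25 (adjusted p = 8.29e-07). Thus 2 of the 2 members tested were called higher, where 12.2% of all genes were. From mESCs to fPSCs Zic2 rose by 3.14 ± 0.25 (adjusted p = 4.30e-07) and Zic5 by 2.98 ± 0.20 (adjusted p = 9.42e-08), in a comparison with 17.3% of all genes called higher. Every fPSC library was above both mESC libraries for both genes, and the share of all genes that separate in this way was not counted. The size of the Zic2 step depended on the mESC pair, and in fPSCs was 3.74 without mESC replicate 1 and 2.54 without mESC replicate 2, called in each case. The steps to EpiLCs and EpiSCs moved by the same amount.

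The primed state held intermediate levels of both genes. EpiSCs were above mESCs by 1.97 ± 0.31 for Zic2 (adjusted p = 0.000216) and by 1.93 ± 0.25 for Zic5 (adjusted p = 4.35e-05), where 23.1% of all genes were called higher. For Zic2 this was 2.57 without mESC replicate 1 and 1.37 without mESC replicate 2, called in both cases. Against EpiLCs, Zic5 was lower in EpiSCs by a log2 fold change of -1.31 ± 0.25 (adjusted p = 0.00153), a call that 15.5% of all genes shared. The difference for Zic2 in that comparison was -0.83 ± 0.31 and missed the threshold (adjusted p = 0.0534). It was called with upper-quartile scaling (-0.93, adjusted p = 0.0345) and when only EpiSCs and EpiLCs entered the fit (adjusted p = 0.0189).

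fPSCs were above EpiSCs by 1.17 ± 0.25 for Zic2 (adjusted p = 0.00316) and by 1.04 ± 0.20 for Zic5 (adjusted p = 0.00177), against 13.3% of all genes called higher. Both calls rested on the EpiSC pair: without EpiSC replicate 2 the differences were 1.04 (adjusted p = 0.0706) and 0.90 (adjusted p = 0.0560). EpiSCs were grown on mouse embryonic fibroblasts, and 14 fibroblast markers summed to 712 and 861 FPKM there, against 6.26 to 11.2 in fPSCs, 15.6 to 19.3 in EpiLCs and 2.41 to 6.62 in mESCs. Of the 14, 11 passed the filter and all 11 were called higher in EpiSCs than in mESCs, and the part of this RNA in the EpiSC levels of Zic2 and Zic5 was not tested. In bulk RNA, fewer cells that express a gene and less RNA per cell cannot be told apart.

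Against EpiLCs, fPSCs differed by 0.34 ± 0.25 for Zic2 (adjusted p = 0.425) and by -0.27 ± 0.20 for Zic5 (adjusted p = 0.436). Neither was called, in a comparison with 13.8% of genes called in either direction. These comparisons share groups, so they are not independent of each other.

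**Figure D2:**
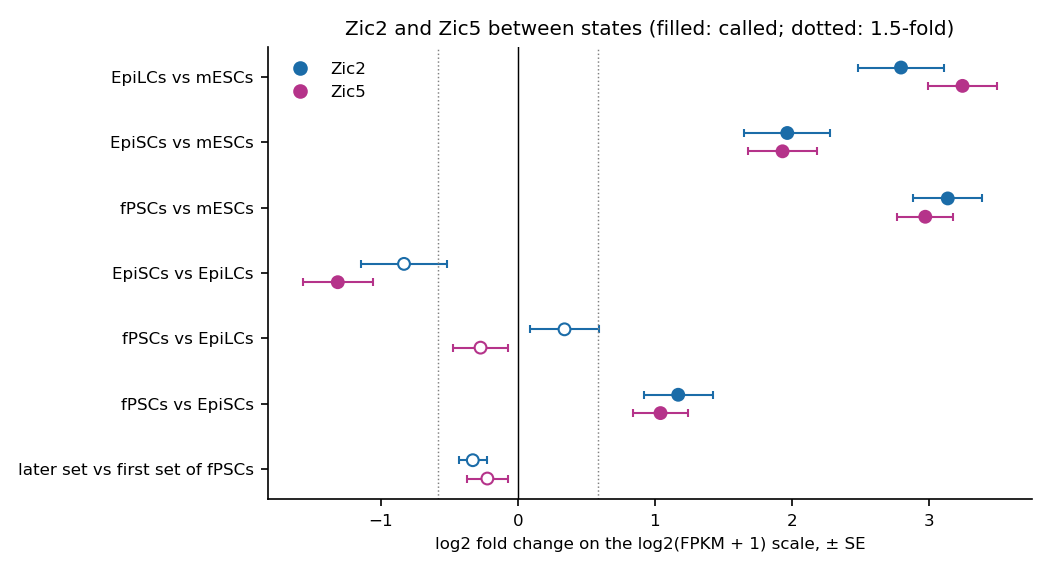
Log2 fold changes of Zic2 (blue) and Zic5 (purple) on the log2(FPKM + 1) scale in 7 comparisons, with SE bars; filled points were called and dotted lines mark 1.5-fold. The largest steps are those away from mESCs, at 2.80 and 3.25 for EpiLCs and at 3.14 and 2.98 for fPSCs, and the points of fPSCs against EpiLCs lie on either side of 0.

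Within fPSCs, levels of Zic2 and Zic5 varied less than those of most genes. The SD of log2(FPKM + 1) over the 7 libraries was 0.21 for Zic2 and 0.23 for Zic5, where the median of 10930 genes was 0.32. Those genes were not matched to Zic2 and Zic5 for level. Zic2 was at 104.0, 88.2 and 97.3 FPKM in P10, P20 and P30, and at 76.3 in CMT P11, 85.6 in 46C, 73.7 in BVSC and 71.1 in ROSAmTmG. All 4 libraries of the later set were thus below the 3 of the first set, by -0.33 ± 0.10 (adjusted p = 0.0278), which is under the 1.5-fold limit, and the call used here was not met. Zic5 was at 28.4, 24.6 and 26.1 FPKM in P10, P20 and P30, and at 22.5, 17.6, 22.3 and 28.4 in the same later libraries. The sets overlapped for Zic5 and differed by -0.22 ± 0.15 (adjusted p = 0.259). Between these sets 29.7% of 10930 genes were called in either direction. Parent line and set cannot be told apart except in CMT, where the frozen P11 library was also the lowest of the CMT fPSC libraries for both genes.

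The single libraries placed the other fPSCs and the Epiblastoids beside this range, with no test. Zic2 was at 103.0 FPKM in fPSCs P1, 103.5 in E5.5 fPSCs and 107 in E6.5 fPSCs, which put the E6.5 library above all 7 fPSC libraries. Zic5 was at 36.9 FPKM in P1, the highest of the 19 libraries, at 28.4 in E5.5 fPSCs and at 32.4 in E6.5 fPSCs. In Epiblastoids the log2 ratio of FPKM + 1 from day 2 to day 4 was 0.27 for Zic2, above 68.4% of 11369 genes. For Zic5 it was -0.51, above 19.45% of them. Zic2 was at 66.0, 64.3 and 79.8 FPKM on days 2, 3 and 4, and Zic5 at 23.0, 17.2 and 15.8. On the same days 8 primed and lineage markers summed to 1.99, 18.8 and 164 FPKM, and 6 formative markers to 1430, 1193 and 660. The day 4 library, from irregular colonies, thus differed in other genes as well.

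The proportion of Zic2 to Zic5 was compared as a ratio of FPKM, which corrects for transcript length. It was 5.08 and 3.11 in mESCs, 2.00 and 2.59 in EpiLCs, and 3.25 and 3.38 in EpiSCs, and ran from 2.50 (ROSAmTmG) to 4.85 (46C) in fPSCs. The first set of fPSCs lay close together, at 3.66, 3.59 and 3.73. The test used log2 ratios of FPKM + 1, which lowers the ratio most where Zic5 is low. On this scale fPSCs exceeded EpiLCs by 0.61, but the exact permutation test (two-sided, 7 against 2) gave p = 0.0556, or 0.167 after adjustment over 3 comparisons, where the smallest p possible is 0.0278. The difference from EpiSCs was 0.13 (exact p = 0.444). The difference from mESCs had no stable sign. It was 0.16 (exact p = 0.583), but -0.13 with a pseudocount of 0.1 and -0.22 without mESC replicate 2. From Epiblastoids of day 2 to day 4 the ratio went from 2.87 to 3.74 and 5.03, in 1 library each, the last from irregular colonies.

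**Figure D3:**
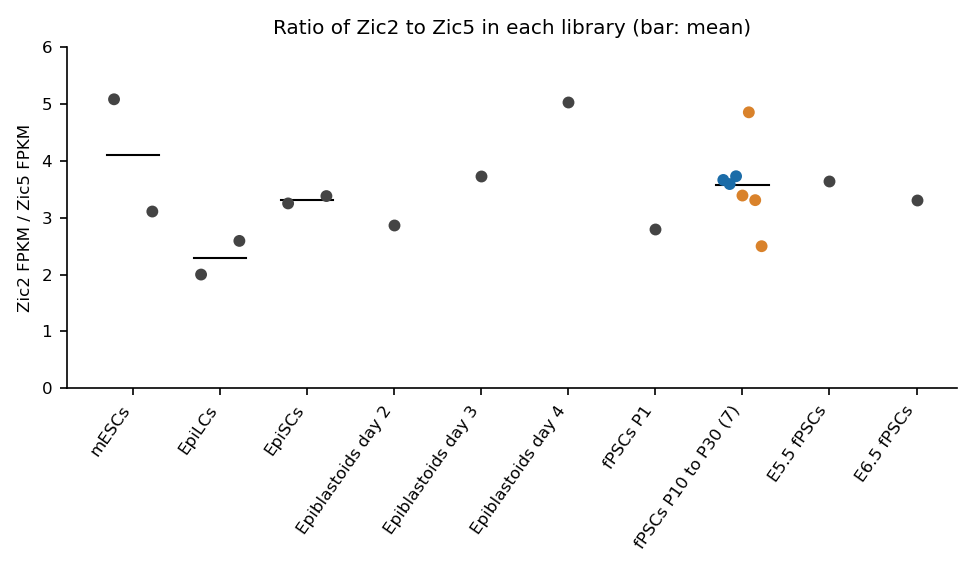
Ratio of Zic2 FPKM to Zic5 FPKM in each library, by group, with the mean as a bar in groups of more than 1 library (blue, first set of fPSCs; orange, later set). The EpiLC pair is at 2.00 and 2.59, and the 7 fPSC libraries spread from 2.50, below the higher EpiLC library, to 4.85.

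Zic1 and Zic4 did not reach 1 FPKM in any library and were not among the genes tested. Zic1 was highest in EpiSC replicate 2, at 0.198 FPKM, and was listed at 0 in 4 of the 19 libraries. It was at 0.0826 and 0.0618 FPKM in EpiLCs and at no more than 0.0414 in the 7 fPSC libraries, so that EpiLCs (exact permutation test, p = 0.0278, 0.0417 after adjustment over 3 comparisons) and EpiSCs (the same values) exceeded every fPSC library. At under 0.2 FPKM these are traces, and the share of all genes that separate in this way was not counted. Zic4 was listed at 0 in 15 of the 19 libraries and was at most 0.0251 FPKM, in fPSCs P10.

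The genes that moved most like Zic2 and Zic5 were sought over the 19 libraries, among 7830 genes, by Pearson's r of log2(FPKM + 1). For Zic2 they were Fgf5 (0.961), a growth factor of the post-implantation epiblast, Zic5 (0.951), the phospholipase gene Pla2g12a (0.947), Vrtn (0.945) and the lipid transfer gene Stard7 (0.944). For Zic5 they were Dnmt3b (0.967), the de novo DNA methyltransferase of the epiblast, Zic2 (0.951), Tmem69 (0.951), Igsf9 (0.948) and Bend3 (0.943). Libraries of 1 state are alike, so these values mostly describe the steps between states, and by Spearman's rho 0 of the 5 for Zic2 and 1 of the 5 for Zic5 were again among the top 5. Over the 7 fPSC libraries alone Zic2 and Zic5 had an r of 0.215 (rho 0.143), which is a description of 7 libraries in 2 sets.

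Related genes were read in the same fit for fPSCs against mESCs, where 17.3% of all genes were called higher and 23.0% lower. Of the 12 factors of the naive to formative step, all tested, 8 rose and none fell, with a median of 1.72 against -0.04 over all genes. They included Pou3f1 (4.48 ± 0.36, adjusted p = 4.65e-07), Lef1 (3.55 ± 0.47), Sall2 (2.92 ± 0.36) and Etv1 (2.77 ± 0.21). Of the 6 Gli and Glis genes, which share the type of zinc finger with the Zic genes, 5 were tested. Gli3, known mainly as a repressor, rose by 3.05 ± 0.51 (adjusted p = 0.000306), while Gli2 (-1.67 ± 0.34), Glis3 (-1.51 ± 0.11) and Gli1 (-0.84 ± 0.13) fell. Glis3 and Gli1 were low in both groups, with means of 2.06 and 1.37 FPKM in mESCs and 0.058 and 0.329 in fPSCs.

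Of 11 hedgehog pathway genes 8 were tested, and 4 rose and 2 fell, beside the same 17.3% and 23.0% of all genes. The signal transducer Smo rose by 2.45 ± 0.22 (adjusted p = 1.64e-06), the inhibitor Sufu by 1.35 ± 0.26 and the co-receptor Cdon by 1.28 ± 0.23, and the receptor and target Ptch1 fell (-1.18 ± 0.33). Of 15 early neural plate genes 4 passed the filter. Sox3 (3.45 ± 0.31) and Nes (1.64 ± 0.32) rose, and Sox2 (-2.80 ± 0.21) and Sox1 (-0.97 ± 0.17) fell. Sox2, which the paper also uses as a pluripotency marker, averaged 214 FPKM in mESCs and 30.7 in fPSCs. Sox1 was near the filter, with means of 1.08 FPKM in mESCs and 0.0434 in fPSCs.

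Chromatin of fPSCs P10 separated the pairs. H3K4me3 marks active and poised promoters and H3K27me3 is laid by Polycomb at silent developmental genes. Both were read as mean RPKM of 100 bp bins within 5000 bp of the gene start and ranked among 22089 protein-coding promoters. Zic2 had 7.87 RPKM of H3K4me3 (633 reads), above 99.9% of promoters, and Zic5 5.46 (439 reads), above 99.6%. Their H3K27me3 was 0.354 RPKM (55 reads) and 0.238 (37 reads), near the median of 0.379 and the mean of 13 housekeeping promoters, 0.246. The windows of this pair overlap a little, and 1 file per mark gives no replicate error.

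Zic1 and Zic4 carried H3K27me3, at 1.22 RPKM or more in each 1 kb segment within 5 kb of either start. A single bin, chr9:91257501-91257600 (NCBIM37), 299 bp inside the annotated start of Zic4 and in the body of Zic1, held 552 reads of H3K4me3 (687 RPKM) and 924 of H3K27me3 (596 RPKM). It was 1 of 181 bins of the genome over 100 RPKM in both marks, and the means with it were 9.69 and 9.60 RPKM of H3K4me3 and 9.74 and 9.80 of H3K27me3 for Zic1 and Zic4. Without such bins H3K27me3 was 3.82 RPKM at Zic1 and 3.88 at Zic4, both above at least 98.95% of promoters and close to the mean of 10 lineage promoters, 3.85. H3K4me3 without the bin was 2.85 and 2.76 RPKM, above 90.1% and 88.9% of promoters and beside the housekeeping mean of 2.85. In narrower windows, which do not reach the bin, H3K4me3 of Zic1 was below the housekeeping mean, at 3.11 RPKM (above 72.6% of promoters) against 4.72 with 2500 bp and at 2.43 (above 48.5%) against 6.62 with 1000 bp to each side. Both genes were among the 1.54% of promoters in the top 10% by both marks with the bin, and 1 of them without it. At the start of transcript Zic4-001, next to the RefSeq start of Zic4, H3K27me3 was 4.38 RPKM, above 99.4% of promoters, and H3K4me3 2.04, above 76.5%.

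Along Zic2 and Zic5 H3K4me3 was highest inside the gene. In the 1 kb before the start it was 2.11 RPKM at Zic2 and 2.49 at Zic5, and between 2 and 3 kb inside it was 17.9 and 17.3. Upstream, Zic2 had a lower peak of 8.96 RPKM between 3 and 2 kb before the start. In windows of 1000 bp to each side, H3K4me3 of Zic2 was therefore above only 78.4% of promoters and that of Zic5 above 68.2%. H3K27me3 in the 10 segments of 1 kb around the starts never passed 0.772 RPKM at Zic2 or 1.29 at Zic5.

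**Figure D4:**
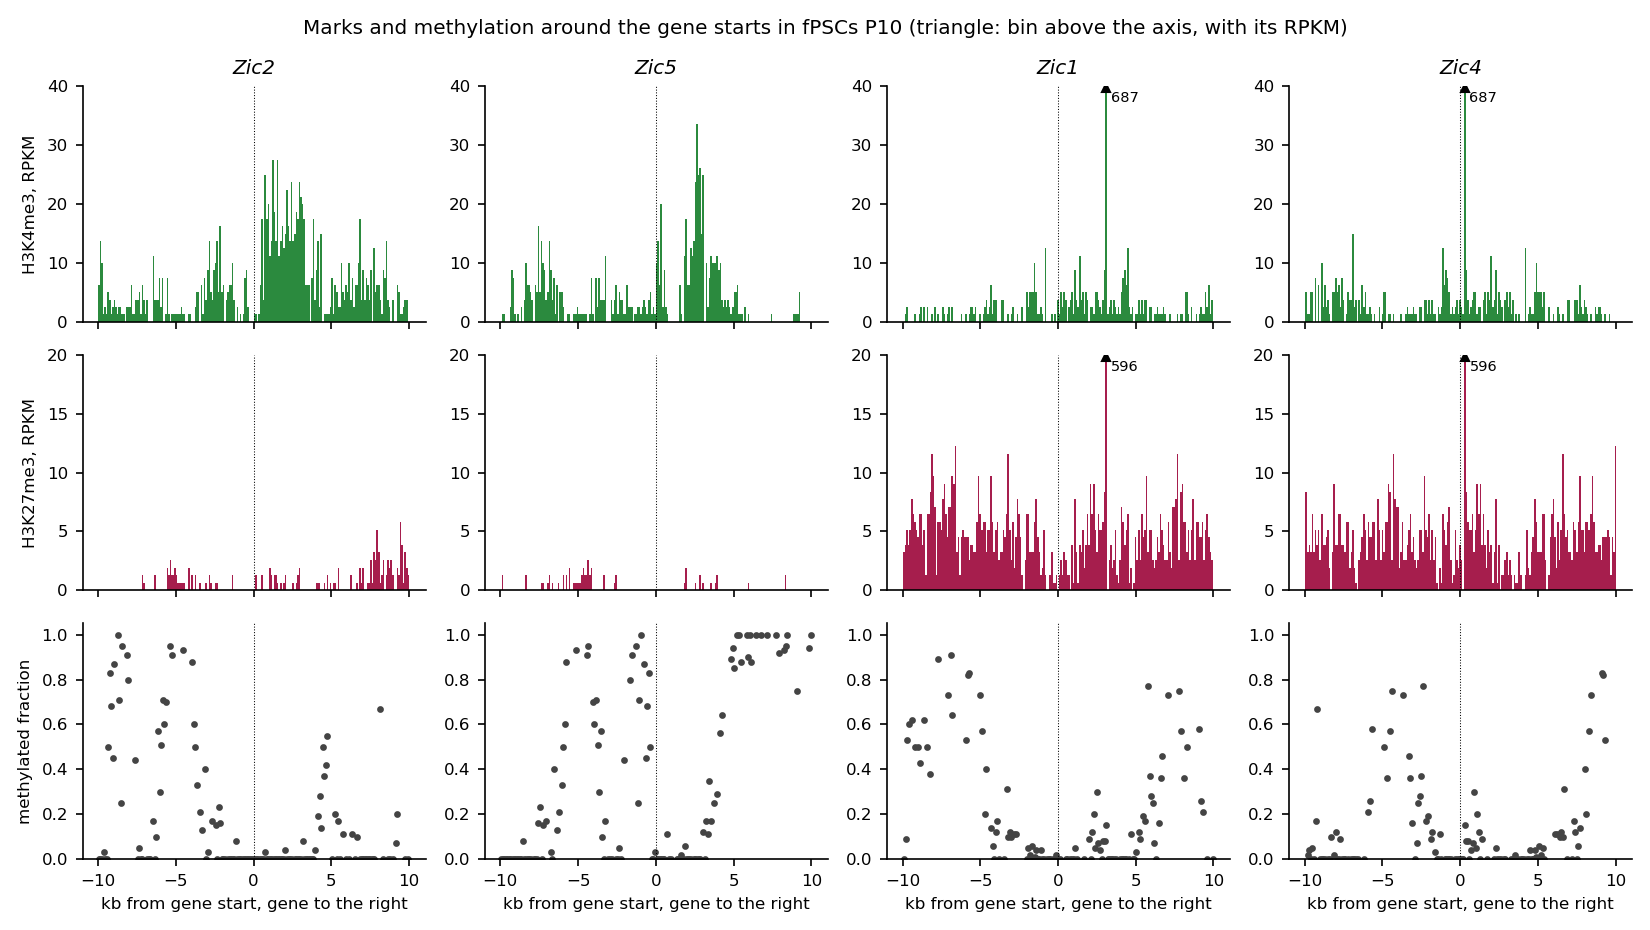
H3K4me3 and H3K27me3 (RPKM in 100 bp bins) and methylated fraction (100 bp windows) within 10 kb of the start of each member in fPSCs P10, drawn with the gene to the right; triangles mark the bin that leaves the axis. Zic2 and Zic5 have most H3K4me3 inside the gene and little H3K27me3 within 5 kb of the start, while Zic1 and Zic4 have H3K27me3 across the window apart from the bin at 596 RPKM.

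DNA methylation within 1000 bp of the start was low at Zic1, Zic2 and Zic4 and ordinary for a promoter at Zic5. Over the genome the windows averaged a methylated fraction of 0.871. Within 1000 bp of the start the mean was 0.0015 at Zic2 (20 windows), 0.00143 at Zic1 (14 windows) and 0.0428 at Zic4 (18 windows), against a median of 0.357 over 21806 promoters. Zic5 was at 0.248 (18 windows), with 38.9% of promoters lower, and its windows split at the start, with 0.484 in the 1 kb before it and 0.0122 in the 1 kb after it. Within 2500 bp of the start Zic5 was at 0.228, with only 4.91% of promoters lower and a median of 0.616 over all promoters. The 4 windows over the Zic5 promoter printed above were at 0, 0.03, 0 and 0, the 4 over the Zic1 promoter at 0 to 0.02, and the 3 over the Zic4 promoter at 0.1 to 0.12. The coverage behind these fractions is unknown.

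Zic2 stood in the longest unmethylated stretch of the 4. Windows at 0.2 or below reached over its start for 6400 bp, chr14:122872401-122878800, which takes in nearly the whole gene and was longer than at 99.7% of 22072 promoters. A stretch of 5000 bp or more was found at 116 of the 22072 promoters. The stretch was 3700 bp at Zic5 (chr14:122861501-122865200), 3300 bp at Zic1 (chr9:91259401-91262700) and 3100 bp at Zic4 (chr9:91255001-91258100), where the median of all promoters was 600 bp. At a limit of 0.1 the stretch was 6100 bp at Zic2 and 3300 bp at Zic1, but 1500 bp at Zic4 (longer than at 84.1% of promoters) and 900 bp at Zic5 (longer than at 62.5%). The Zic1 stretch was also 3300 bp at a limit of 0.3, and it ended at gaps of more than 3 windows without a value. Beyond these gaps methylation was still low, at 0.0733 between 3 and 2 kb before the start and 0.094 between 2 and 3 kb inside. The length at Zic1 thus depended on the joining rule.

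In single fPSCs Zic5 counts were common and Zic2 counts rare, the reverse of their FPKM. Counts are not scaled to transcript length and FPKM is, so the 2 orders are in unlike units. Of 182 columns 181 held at least 500 genes, the median counts per cell were 19078, 32356, 33883 and 22634 in clones 1 to 4, and the clone was read from the column name. A Zic5 count was found in 28 of 46 cells of clone 1 (60.9%, exact 95% interval 45.4 to 74.9), 39 of 45 of clone 2 (86.7%, 73.2 to 94.9), 34 of 46 of clone 3 (73.9%, 58.9 to 85.7) and 29 of 44 of clone 4 (65.9%, 50.1 to 79.5). A Zic2 count was found in 12 (26.1%, 14.3 to 41.1), 17 (37.8%, 23.8 to 53.5), 5 (10.9%, 3.62 to 23.6) and 2 cells (4.55%, 0.555 to 15.5) of the same clones. The intervals of clones 1 and 2 overlap for both genes, as do those of clones 3 and 4, and all cover counting error only.

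Summed over cells, Zic2 was at 35.3 CPM (counts scaled to library size) in clone 1 (53 counts), 34.2 in clone 2 (111 counts) and 20.8 in clone 3 (98 counts, 60 of them in 1 cell), and at 1.63 in clone 4 (4 counts, exact Poisson interval 0.445 to 4.18, which treats reads as independent molecules). Zic5 was at 186, 253, 241 and 174 CPM in clones 1 to 4. Clones 1 and 2 stood in one table and clones 3 and 4 in another, so clone pair and table cannot be told apart. With cells thinned to 11000 counts, clone 1 had Zic2 in 6 of 35 cells, at 20.8 CPM (interval 8.97 to 40.9). Clone 2 had it in 5 of 35 cells, at 31.2 CPM (16.1 to 54.4). Clones 3 and 4 had it in 2 of 38 and 2 of 33 cells, at 12.0 CPM (3.88 to 27.9) and 8.26 CPM (1.70 to 24.2). These intervals overlap, so the clones were not separated at equal depth. Of 6 formative markers clone 4 was the lowest clone for Pou3f1 (22.5 CPM against 29.3 to 51.1) and Utf1 (305 against 309 to 386) and the highest for Dnmt3b (2030 against 1772 to 1898), Otx2 (273 against 140 to 231) and Sox4 (133 against 98.1 to 131).

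Cells with Zic2 were nearly all cells with Zic5, but Zic5 was found in 130 of all 181 cells (71.8%). All 36 cells with Zic2 held 2000 genes or more, and of the 152 such cells 81.6% had Zic5. Whether the 2 genes were found together more often than this depth gives was not tested. Over the 4 clones 35 cells had both, 1 had Zic2 alone, 95 had Zic5 alone and 50 had neither. With cells thinned to 11000 counts each, 15 of 141 cells had Zic2 and 98 had Zic5. A count of 0 in a cell this shallow does not show absence of the RNA, and the tables hold no other cell type that would give the background of free RNA. In single cells Zic5 exceeded Zic2 by 5.28 to 11.6 counts per count in clones 1 to 3. In clone 4 the figure was 106, on 4 Zic2 counts. By FPKM Zic2 exceeded Zic5 in every bulk library, and the reason for the difference from single cells was not tested.

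**Figure D5:**
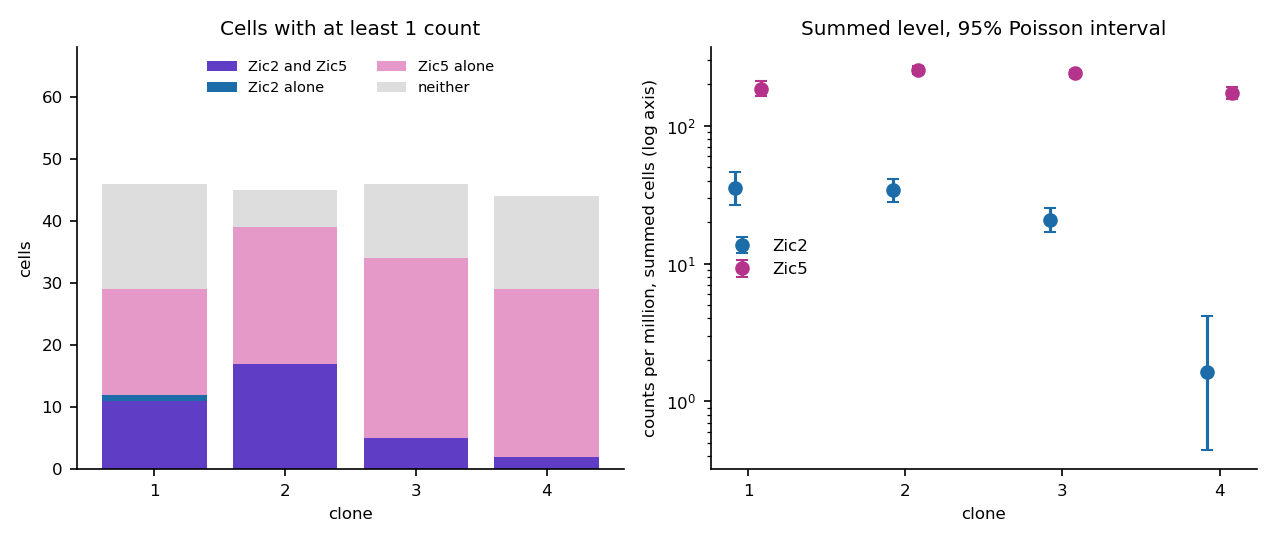
Left, cells of each clone with counts of Zic2, Zic5, both or neither (stacked numbers of cells); right, summed CPM of each gene per clone on a log axis with exact 95% Poisson intervals. Zic5 is at 174 to 253 CPM in all 4 clones, and Zic2 is at 20.8 to 35.3 in clones 1 to 3 and at 1.63 in clone 4, before cells are thinned to equal counts.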

How the data were processed

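Bulk RNA levels were the FPKM that the authors deposited, made with TopHat2 2.1.1 and Cufflinks 2.1.1 on mm9 (versions from the submitters' processing notes). H3K4me3 and H3K27me3 were deposited as RPKM in 100 bp bins (Bowtie2 2.2.2), where 1 read equals 1.24 and 0.645 RPKM. Methylation was deposited as a fraction per 100 bp window (BS-Seeker2) without coverage, and the single-cell tables as counts. The authors integrated ChIP replicates for their own analysis. Of 27 samples 24 were used, and second replicates of the ChIP and methylation profiles were not analysed here. FPKM was tested as log2(FPKM + 1) with limma 3.58.1 (trend, Benjamini-Hochberg) on genes at 1 FPKM in at least 2 libraries. The lowest FPKM steps put the depth of the libraries at 0.785 to 2.43 times that of fPSCs P10. The script was tested on simulated data. Zic1, Zic4 and ratios were compared with exact permutation tests (scipy 1.17.1). The files fitted NCBIM37, with no position past a chromosome end. A cell name that appeared 2 times had different counts, and both cells were kept. Doublets were not sought. Named genes are the members, the 5 genes most like Zic2 and Zic5, and the 4 largest called changes of each list. Members and gene lists were chosen with earlier results of these data known.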

Additional observations from a re-analysis of the deposited data

Results flagged for a closer look

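Zic4 in the 46C P24 library of fPSCs, at 0.0238 FPKM, was the only value that stood apart from its group by Dixon's 95% limit, since the other 3 libraries of the later set were listed at 0. The ends of 13 groups of values were examined, and chance alone flags about 1 group in 20. The level is a trace.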

How the results depend on the processing

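Of 170 alternative values of the Zic2 and Zic5 differences, 150 between states and 20 between the sets of fPSCs, 0 changed sign, 2 lost the call and 2 gained it. With upper-quartile scaling Zic2 was called lower in EpiSCs than in EpiLCs (-0.93, adjusted p = 0.0345), and likewise with only those groups in the fit (-0.83, adjusted p = 0.0189). Without EpiSC replicate 2 both differences of fPSCs from EpiSCs lost the call. Leaving out 1 library at a time gave 1.04 to 1.30 for Zic2 and 0.90 to 1.19 for Zic5 there.

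The replicate numbers of mESCs, EpiLCs and EpiSCs did not pair the libraries (correlations of deviations 0.208, -0.203 and -0.138). With a replicate block in a fit of those 3 groups the difference of Zic2 between EpiSCs and EpiLCs was -0.83 (adjusted p = 0.0578), and without the block, a fit added after seeing the data, its adjusted p was 0.0957. The replicate block changed no call of Zic2 or Zic5.

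The Zic2 to Zic5 ratio of fPSCs against mESCs turned to -0.13 with a pseudocount of 0.1 and ranged from -0.22 to 0.55 without 1 mESC library, with the negative value without replicate 2. Of the 5 genes most like Zic2 and like Zic5, 3 and 3 were kept with a pseudocount of 0.1, and 0 and 1 by Spearman's rho. The cause was not tested.

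All 4 members were in the top 10% of promoters by H3K4me3, and 2 with windows of 2500 bp and 1 with 1000 bp to each side. By H3K27me3 the count was 2, and 1 with 1000 bp. For both marks the member left with 1000 bp was Zic4. Of its 609 reads of H3K4me3 and 1043 of H3K27me3 there, 552 and 924 lay in the single bin described above. Bins over 100 RPKM in both marks were left out after seeing the data, and without them the counts with 5000 bp were 3 by H3K4me3 and 2 by H3K27me3. In single cells the share with Zic2 in clone 2 was 14.3% with cells thinned to 11000 counts. The share with Zic5 in clone 3 was 86.5% among cells with 2000 genes or more and 57.9% with thinned cells.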
